A study of Mus musculus with 12 samples.

Results

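Reactive astrocyte genes are those that astrocytes raise after injury, inflammation or ischemia. A list of 33 of them was read across RNA-seq libraries of cells sorted from mouse spinal cord as astrocytes. The members were matched by gene symbol, and all 33 were found among the 24421 entries of the deposited table. They comprise genes published as pan-reactive, genes of the A1 set described after lipopolysaccharide, genes of the A2 set described after ischemia, and further genes often used as reactive markers. The study compared astrocytes of control mice with astrocytes of mice carrying a conditional knockout (cKO) of Nkx6-1, a homeobox transcription factor of the ventral spinal cord, in males and in females. The groups were control males, cKO males, control females and cKO females, with 3 labelled replicates in each of the 4. All carried the Aldh1l1-GFP reporter, which marks astrocytes, and GFP cells were sorted from the spinal cord. Neither the alleles of the control and cKO groups, the driver of the deletion nor the age of the mice is stated in the labels. Whether a replicate is an animal of its own or a pool is not stated either, and the p-values therefore cover the spread of these libraries alone, which may be technical.

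Astrocytes answer damage by enlarging their intermediate filament network and by changing the proteins they secrete and display. Cytokines of the interleukin 6 family bind receptors that share the gp130 chain, which activates JAK kinases and the transcription factor STAT3, an inducer of Gfap. Interleukin 1 and tumour necrosis factor act through NF-kB, and complement and protease inhibitors are among the products released. The list therefore covers filament proteins, a cytokine receptor with its signalling genes, secreted inhibitors and complement, enzymes and a receptor of lipid signalling, matrix and adhesion genes, and membrane proteins.

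The libraries held 2246412 to 9054934 reads in genes, and 1 read was worth 0.417 to 2.14 normalized counts. The library labelled male cKO replicate 2 held 3546 reads of Xist and 0 reads of Y-linked genes. Its counts and those of female cKO replicate 2 differed by little more than sampling noise, which alone gives a chi-square per degree of freedom near 1. The value was 1.06, against 15.2 to 145 for the other 65 pairs of libraries. Between these 2 libraries, the 17 members with at least 50 reads in the pair differed in normalized count by factors of 0.732 to 1.58. They were counted as 1 sample under the female label, which left 11 libraries, 2 of them male cKO. Nkx6-1 itself had 2 to 9 reads in male controls and 7 to 19 in female controls, and 0 reads in male cKO replicate 1 and female cKO replicates 1 and 2. Replicate 3 of both cKO groups went against its label, with 18 reads in the male and 19 in the female library. These came to 25.6 and 28.3 normalized counts, above every control (1.51 to 15.2). Every cKO direction below includes both replicate 3 libraries. The genotype was therefore checked also without them, which left 1 male cKO library. The numbers in the library names run lower for all males than for all females, so sex and library number cannot be told apart. The labels do not say what these numbers stand for.

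Markers of the sorted cell type were present in every library, with 21420 to 123200 normalized counts summed over 16 astrocyte genes, and so were markers of other cells. The summed astrocyte markers ranged from 21660 to 56600 in male controls, 109400 to 123200 in male cKO, 21420 to 99250 in female controls and 49170 to 102400 in female cKO libraries. Oligodendrocyte markers, 12 genes, summed to 57800 to 136800, 37060 to 51740, 65810 to 103700 and 56570 to 85070 in the same order. In every male control the oligodendrocyte sum was above the astrocyte sum, for example 136800 against 21660 in replicate 2. In the male cKO libraries it was below, and female libraries of both genotypes fell on either side. Levels of the members are therefore those of all sorted cells, not of astrocytes alone. Fewer cells of a type and less RNA per cell cannot be told apart in these sorted samples.

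Most members were measurable, and their levels spanned a wide range. Reads were present in all 11 libraries for 24 of the 33 members, and 13 had a median of at least 100 normalized counts. Per kilobase of exon, the highest median level was that of Serping1 (305 normalized counts per kilobase), the C1 inhibitor of the complement and contact systems. Gfap followed at 131, Vim at 123, Serpina3n at 91.8 and Synm at 91.3 normalized counts per kilobase. Srgn (61.3), Steap4 (61.1), C3 (50.4) and Stat3 (39.6) came next on the same scale. Neighbours in this order overlapped in their ranges over libraries; Gfap, for instance, had 181 to 1986 and Vim 410.1 to 889 normalized counts. At the other end, Sphk1, which makes sphingosine 1-phosphate, had 0 reads in all 11 libraries, which allows up to 1.25 to 6.43 normalized counts per library (3 reads, counting error only). Clcf1, Ptx3 and Aspg had reads in some libraries but fell under the filter of at least 10 normalized counts in at least 3 libraries, as did Sphk1, which left 29 members tested. The median SD of the 29 tested members over the 11 libraries was 1.04 on the log2 scale, against 0.783 over all 13108 genes tested. Members and all genes were not matched for level here. The SD was large for members with 0 reads in some library, such as Steap4 (2.69) and Lgals3 (2.19).

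**Figure D1:**
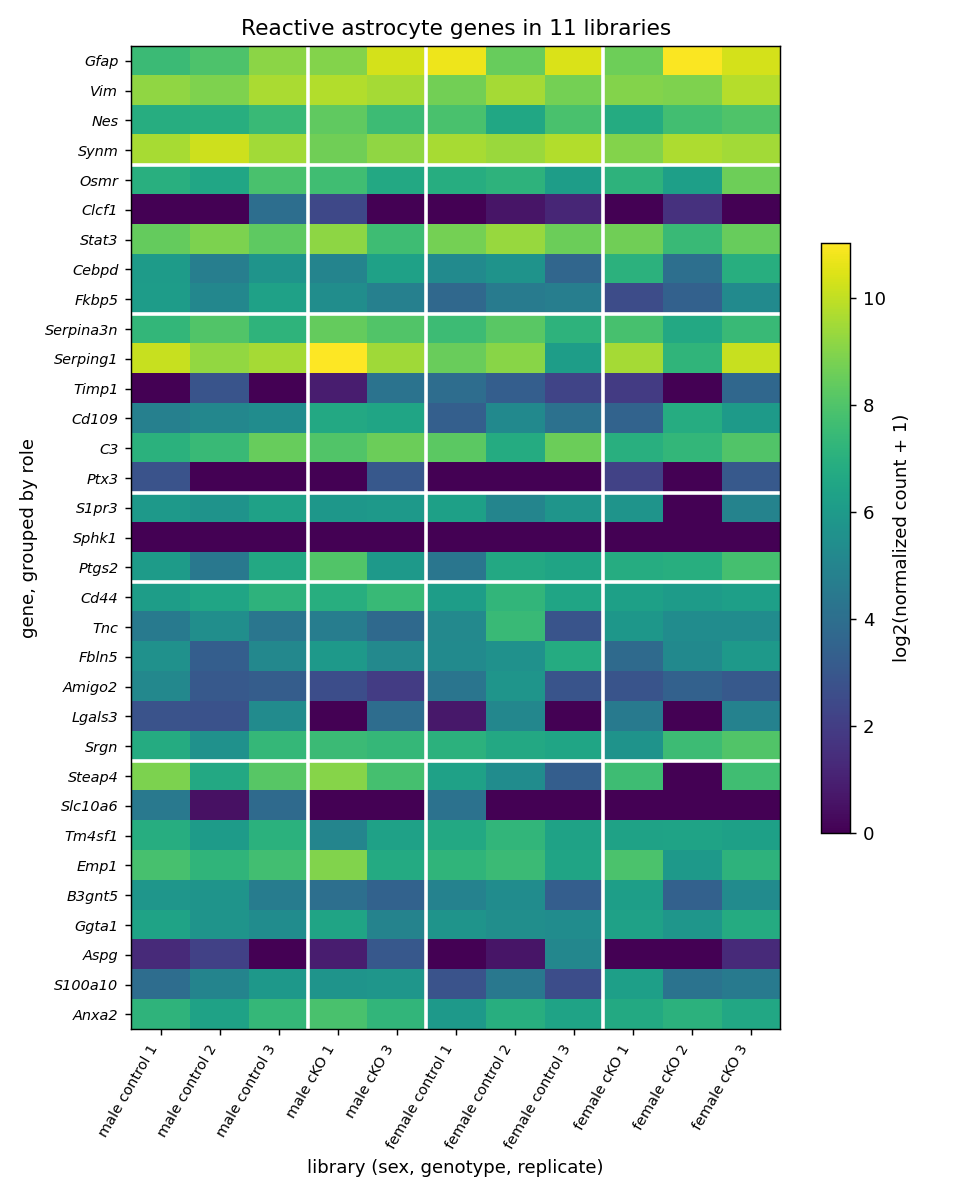
Level of the 33 reactive genes (rows, grouped by role) in 11 libraries (columns, grouped by sex and genotype), as log2(normalized count + 1). Synm, Serping1, Vim and Gfap have the highest medians (725, 708, 581 and 551 normalized counts), Sphk1 is at 0 throughout, and bright and dark cells occur in all 4 groups.

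No member differed between cKO and control at an adjusted p under 0.05, in limma over 13108 genes with Benjamini-Hochberg adjustment. With the sexes averaged, 19 of the 29 tested members had a positive fitted difference and 10 a negative one, with a median log2 fold change of 0.14, where 48.3% of all genes tested were positive, 51.7% were negative and their median was -0.02. Slc10a6, among the negative members, passed the filter only through control libraries. In males 18 were positive and 11 negative with a median of 0.42, against 48.1% positive, 51.9% negative and a median of -0.04 over all genes. In females 16 were positive and 13 negative with a median of 0.09, against 49.5%, 50.4% and a median of -0.01. The share called was 0% of all genes in each of these 3 comparisons by limma. At an unadjusted p under 0.05, 3 members (Ptgs2, Synm and Cd109) were counted with the sexes averaged, where 8.57% of all genes were. In males 1 member (Synm) was counted against 9.7% of all genes, and in females 0 members against 3.9%. edgeR and DESeq2 on the recovered reads called 0 members as well, with a lowest adjusted p of 0.249 over all comparisons in DESeq2. Over all genes, edgeR called 0 and DESeq2 called 29, 84 and 2 genes in the averaged, male and female comparisons.

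Averaged over the 29 tested members, the log2 level was 6.27 ± 0.32 in male controls (SD, n = 3), 6.36 ± 0.097 in male cKO (n = 2), 5.98 ± 0.449 in female controls (n = 3) and 6.02 ± 0.677 in female cKO libraries (n = 3). The group means lay closer together than the libraries of either female group did among themselves.

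**Figure D2:**
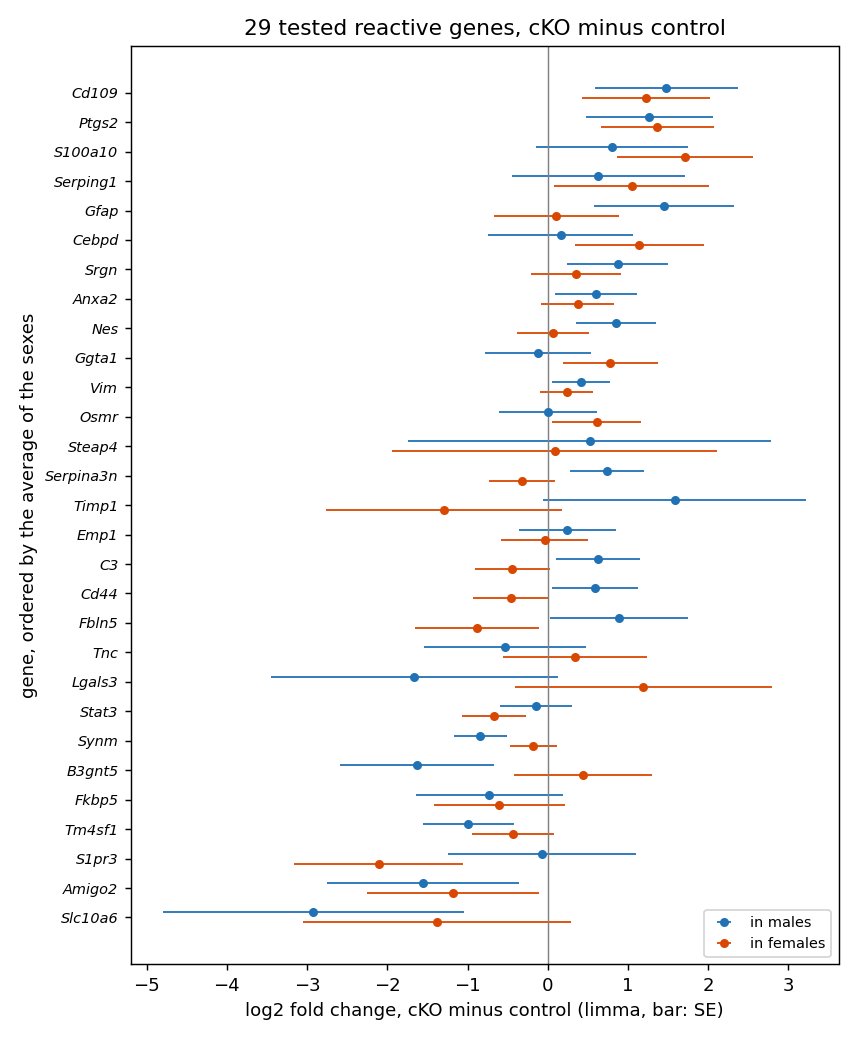
Log2 fold change (cKO minus control, limma on log2(normalized count + 1)) of the 29 tested reactive genes in males (blue) and in females (orange), with bars of 1 SE, ordered by the average of the sexes. Points lie on both sides of 0 in each sex, and Slc10a6, Timp1, Steap4 and Lgals3 have the widest bars.

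Gfap, Vim, Nes and Synm, the intermediate filament genes, were read in every library, and none of their differences between genotypes passed the test. Gfap (chr11:102887336-102900912, minus strand, GRCm38), the filament protein by which reactive astrocytes are usually recognised, had 181, 249 and 551 normalized counts in the male controls and 506 and 1265 in the male cKO libraries. The female control libraries held 1695, 353 and 1336 and the female cKO libraries 390.5, 1986 and 1291. Its group means were 327 ± 197 (SD, n = 3), 886 ± 537 (n = 2), 1128 ± 695 (n = 3) and 1222 ± 799.9 (n = 3) in that order. The male control libraries were low, the highest male control lay above the lower male cKO library, and the female groups overlapped over nearly their whole range. The log2 fold change of Gfap was 1.45 (SE 0.87, adjusted p = 0.659) in males, 0.11 (SE 0.78, adjusted p = 0.999) in females and 0.78 (SE 0.59, adjusted p = 0.760) with the sexes averaged. Astrocyte markers were higher in male cKO too: 16 of 16 had a positive fitted difference in males, with a median log2 fold change of 1.74. By limma 13 of the 16 had an unadjusted p under 0.05, against 9.7% of all genes, and 0 were called (lowest adjusted p = 0.229). With the mean of the astrocyte markers as a covariate, the male value of Gfap was -0.45 (SE 0.69) and the averaged value -0.22 (SE 0.42). That mean log2 level was 8.89 to 10.27 in male controls and 11.16 and 11.22 in the male cKO libraries. Adjusted male values, here and below, therefore compare groups at a marker level that they do not share. In females 11 of the 16 markers were positive, with a median log2 fold change of 0.095 and 0 called. The source of the marker differences, genotype or otherwise, was not tested. Set against Aqp4, the astrocyte water channel, Gfap came to 9.01, 17.6 and 14.8 normalized counts per 100 of Aqp4 in the male controls and 5.93 and 14.97 in the male cKO libraries. In females the same ratio was 22.0, 26.5 and 20.5 in controls and 11.9, 26.2 and 28.4 in cKO libraries, so both genotypes overlapped in both sexes.

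Vim (chr2:13573927-13582826, plus strand) and Nes (chr3:87971078-87980451, plus strand) encode vimentin and nestin, filament proteins of immature and reactive astrocytes. Vim had 581, 479 and 795 normalized counts in the male controls and 864 and 754 in the male cKO libraries. Values in females were 410.1, 749.8 and 423 in controls and 505, 473 and 889 in cKO libraries. The male cKO values of Vim fell on either side of the highest male control, and its log2 fold change was 0.42 (SE 0.37, adjusted p = 0.763) in males and 0.23 (SE 0.33, adjusted p = 0.999) in females. Over the 11 libraries Vim had Pearson's r = 0.813 and Spearman's rho = 0.855 with the mean of 10 dissociation and immediate early markers (adjusted permutation p = 0.175 and 0.137; r = 0.736 without the 2 farthest libraries). Those markers had a median log2 fold change of -0.02 in males and 0.37 in females, and their part in the Vim values was not tested. Nes had 116, 119 and 176 normalized counts in the male controls and 317.5 and 185 in the male cKO libraries. Female controls had 232, 94.6 and 229.8 and female cKO libraries 111, 206.5 and 255. Both male cKO libraries were above all 3 male controls for Nes, while the female groups overlapped. For Nes the log2 fold change was 0.85 (SE 0.50, adjusted p = 0.624) in males and 0.07 (SE 0.45, adjusted p = 0.999) in females, and the male value was -0.09 (SE 0.62) with the astrocyte marker mean as a covariate.

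Synm (chr7:67730160-67759742, minus strand), which encodes synemin, a bridging filament protein that pairs with vimentin and GFAP, had 764, 1170 and 720.1 normalized counts in the male controls and 397 and 586 in the male cKO libraries. Among females, 760.0, 662 and 852 were counted in controls and 505, 809 and 725 in cKO libraries. The 2 male cKO libraries were below the 3 male controls, and the female groups overlapped. The log2 fold change of Synm was -0.84 (SE 0.33, adjusted p = 0.415) in males, with an unadjusted p of 0.0194, -0.18 (SE 0.30, adjusted p = 0.999) in females and -0.51 (SE 0.22, adjusted p = 0.546) with the sexes averaged. The male value was -0.88 (SE 0.43) with the astrocyte marker mean as a covariate. Exons of Synm overlap Ttc23 on the other strand, and since the sources used here do not say whether reads were counted by strand, part of its count may belong to that gene.

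**Figure D3:**
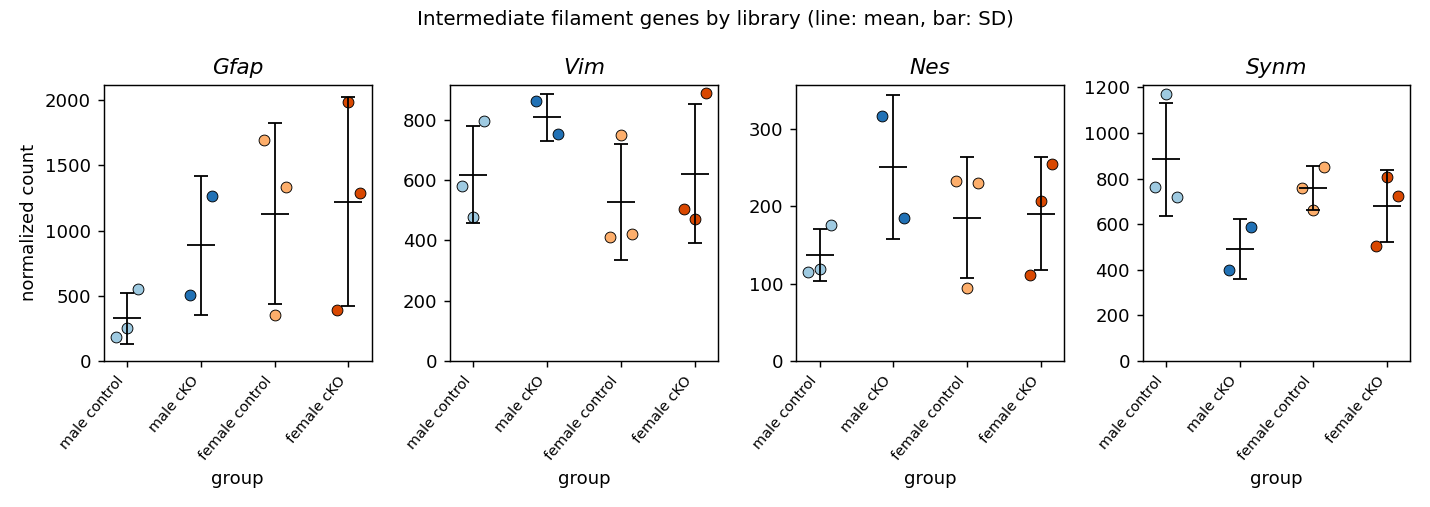
Normalized counts of Gfap, Vim, Nes and Synm in each of 11 libraries by group (points), with the group mean (line) and SD (bar). Gfap reaches 1986 in female cKO and 1695 in female control libraries and stays between 181 and 551 in male controls. Synm is lower in both male cKO libraries (397 and 586) than in the male controls (720 to 1170).

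Genes of cytokine signalling were detected from receptor to target, and none passed the test. Osmr (chr15:6813577-6874969, minus strand), the oncostatin M receptor that pairs with gp130, had 69.8 to 391 normalized counts with a median of 123, and its log2 fold change was 0.31 (SE 0.41) averaged over the sexes. Clcf1, a ligand of the ciliary neurotrophic factor receptor, had 0 to 15 normalized counts and was not tested. Stat3 (chr11:100885098-100939540, minus strand), the transcription factor downstream of gp130, had 344, 458 and 311 normalized counts in the male controls and 567 and 192 in the male cKO libraries. In females the values were 421, 635 and 377 in controls and 393, 177.5 and 356 in cKO libraries. Stat3 overlapped between genotypes in both sexes, with a log2 fold change of -0.67 (SE 0.40, adjusted p = 0.999) in females and -0.15 (SE 0.45) in males, and its exons overlap Stat5a on the other strand. Cebpd (chr16:15887286-15891031, plus strand), a transcription factor induced by STAT3 and by inflammatory signals, had 65.3, 25.0 and 51.4 normalized counts in the male controls and 30.7 and 78.4 in the male cKO libraries. The female control libraries held 37.5, 50.1 and 11.4 and the female cKO libraries 134, 15.4 and 118. The 2 highest values of Cebpd belonged to female cKO replicates 1 and 3, but replicate 2 was below 2 of the 3 female controls, and the female log2 fold change was 1.14 (SE 0.81, adjusted p = 0.999). The exons of Cebpd overlap those of Spidr on the other strand. Fkbp5 (chr17:28399094-28517527, minus strand), a chaperone partner of the glucocorticoid receptor that glucocorticoids induce, had 4.87 to 77.2 normalized counts with a median of 27.1 and a log2 fold change of -0.66 (SE 0.62).

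Of the rest of the gp130, JAK and STAT3 pathway, 17 of 26 listed genes were tested and 0 passed in any comparison. With the sexes averaged, 12 were positive and 5 negative with a median log2 fold change of 0.44, and 5 of the 17 had an unadjusted p under 0.05 against 8.57% of all genes. The gene with the smallest p in this list, Junb, an AP-1 subunit that is also an immediate early gene, had 230.1, 142 and 392 normalized counts in the male controls and 471 and 406 in the male cKO libraries. Values in females were 171.5, 206.5 and 270.4 in controls and 468.5, 442 and 441 in cKO libraries. Its log2 fold change was 0.99 (SE 0.27, adjusted p = 0.439), and all 5 cKO libraries were above all 6 controls, as for 0.206% of all genes tested. Jak2, a kinase bound to gp130 receptors, had 494, 319.5 and 319 normalized counts in the male controls and 195.5 and 219 in the male cKO libraries. Female controls had 379, 530.5 and 339 and female cKO libraries 284, 255 and 194. All 5 cKO libraries were below all 6 controls for Jak2, as for 0.389% of all genes tested, and its log2 fold change was -0.80 (SE 0.25, adjusted p = 0.439). Cntfr, the ligand-binding chain of the ciliary neurotrophic factor receptor, had a log2 fold change of 0.81 (SE 0.25, adjusted p = 0.439). Cntfr ranged from 212 to 508 normalized counts in the 6 controls and from 416 to 724 in the 5 cKO libraries. Cntfr is made by astrocytes. As given above, astrocyte markers were higher in male cKO libraries, though none was called, and differed little by genotype in females. Their part in the Cntfr difference was not tested.

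For the pathway of NF-kB and its upstream receptors, 20 of 21 listed genes were tested, 7 were positive and 13 negative with the sexes averaged, and 0 passed. The smallest p here was that of Il1rap, the accessory chain of the interleukin 1 receptor, with a log2 fold change of -0.83 (SE 0.27, adjusted p = 0.439). Traf2, an adaptor of tumour necrosis factor receptors, followed at -2.71 (SE 0.89, adjusted p = 0.450) and the cytokine gene Il1a at -1.09 (SE 0.56, adjusted p = 0.592). Of the TGF-beta and SMAD list all 13 genes were tested, 8 were positive and 5 negative, and 0 passed. Tgfbr2, a receptor of TGF-beta, had a log2 fold change of 0.74 (SE 0.31, adjusted p = 0.527); Ltbp1, which binds latent TGF-beta, had 0.69 (SE 0.34); and Smad7, an inhibitor of the pathway, had -0.66 (SE 0.35).

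Because STAT3 is a known activator of Gfap, promoter sequences of the members were searched for the STAT recognition letters. RefSeq windows (GRCm38.p6, 250 bases before to 50 after a start site) were held for 28 of the 33 members, 36 windows in all. The loose motif TTCNNNGAA, whose reverse complement is the same, was present in 5 of the 36 windows (13.9%; Steap4, Emp1, Gfap and Sphk1, the latter in both of its overlapping windows), against 8.30% of 32851 promoters. The form TTCCNGGAA, which is stricter and lies within the loose motif, was present only in the windows of Gfap and Steap4 among the members (2 of 36, 5.56%), against 1.15% of all promoters. Both windows are shown with these 9 letters in capitals, 5′ to 3′ on the strand of the gene; the Gfap window is chr11:102897151-102897450 (minus strand) and that of Steap4 is chr5:7960222-7960521 (plus strand).
Gfap: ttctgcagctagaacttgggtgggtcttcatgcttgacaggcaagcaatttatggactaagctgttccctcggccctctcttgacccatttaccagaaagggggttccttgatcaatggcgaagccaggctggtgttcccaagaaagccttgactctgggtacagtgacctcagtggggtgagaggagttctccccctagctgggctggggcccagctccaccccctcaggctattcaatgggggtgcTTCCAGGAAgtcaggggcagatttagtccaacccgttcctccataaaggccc
Steap4: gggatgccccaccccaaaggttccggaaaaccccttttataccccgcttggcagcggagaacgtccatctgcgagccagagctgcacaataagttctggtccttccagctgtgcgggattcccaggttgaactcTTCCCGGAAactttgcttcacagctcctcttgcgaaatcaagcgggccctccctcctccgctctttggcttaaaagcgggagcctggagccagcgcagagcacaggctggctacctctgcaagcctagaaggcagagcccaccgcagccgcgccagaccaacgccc
In the Gfap window the motif begins 2 bases before the start site, and in the Steap4 window 116 bases before it. Sites outside the windows were not searched, and binding of STAT3 to these letters was not tested. The AP-1 motif TGANTCA was present in 5 of the 36 windows (Emp1, Anxa2, Sphk1 and Osmr), against 7.81% of all promoters, and the C/EBP motif TTGCGCAA in 1 window (Ptgs2), against 0.183%. Neither the NF-kB motif (0.411% of all promoters) nor the palindromic NFI motif (0.0365%) was present in these windows. Each motif was searched on both strands. Of the pair with the strict motif, female cKO replicate 2 had the highest Gfap count of the 11, 1986, and 0 reads of Steap4. This is 1 library, and the relation of Gfap to Steap4 over the libraries was not tested.

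Secreted inhibitors and complement genes had positive fitted differences in males for all 5 tested members (median log2 fold change 0.74) and for 2 of the 5 in females (median -0.32); none passed. Serpina3n (chr12:104406729-104414329, plus strand), a secreted serine protease inhibitor that is strongly induced in reactive astrocytes, had 155, 257 and 141 normalized counts in the male controls and 339 and 264 in the male cKO libraries. Among females, 189, 292 and 138 were counted in controls and 223, 100.4 and 174 in cKO libraries. Both male cKO libraries were above the male controls (264 against a highest control of 257 for the closest pair), and the female cKO values overlapped the controls on the low side. Its log2 fold change was 0.74 (SE 0.46, adjusted p = 0.651) in males and -0.32 (SE 0.41, adjusted p = 0.999) in females, and the difference of the effects, female minus male, was -1.06 (SE 0.62, adjusted p = 0.895). This difference had the smallest unadjusted p among the members, 0.0998.
Cd109 (chr9:78615546-78716253, plus strand), a membrane-anchored protease inhibitor of the complement-related family that also binds TGF-beta, had 26.6, 33.8 and 40.7 normalized counts in the male controls and 101 and 88.3 in the male cKO libraries. In females the values were 9.22, 36.7 and 16.5 in controls and 10.4, 114 and 64.1 in cKO libraries. The male groups did not overlap, and female cKO replicate 1 lay within the female controls while replicates 2 and 3 lay above them. The log2 fold change of Cd109 was 1.48 (SE 0.89, adjusted p = 0.637) in males, 1.22 (SE 0.80, adjusted p = 0.999) in females and 1.35 (SE 0.60, adjusted p = 0.546) averaged, and the averaged value was 1.45 (SE 0.75) with the astrocyte marker mean as a covariate.

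C3 (chr17:57203970-57228136, minus strand), the central complement protein and a common marker of the A1 state, had 132, 178 and 356 normalized counts in the male controls and 260.3 and 379 in the male cKO libraries. The female control libraries held 299, 110.2 and 377 and the female cKO libraries 122, 156 and 259. Its groups overlapped in both sexes. The log2 fold change of C3 was 0.63 (SE 0.52) in males and -0.44 (SE 0.47) in females, and the difference was -1.07 (SE 0.70, adjusted p = 0.909). Timp1 (chrX:20870166-20874735, plus strand), an inhibitor of matrix metalloproteinases, had 0, 6.26 and 0 normalized counts in the male controls and 0.854 and 17.1 in the male cKO libraries. Values in females were 14.1, 8.91 and 3.81 in controls and 2.78, 0 and 11.9 in cKO libraries. These values are near the detection limit, and the difference of its effects of -2.88 (SE 2.20, adjusted p = 0.939) rests on 0 to 23 reads per library. Serping1 (chr2:84765387-84775444, minus strand) had 1088, 595 and 746 normalized counts in the male controls and 2084 and 708 in the male cKO libraries. Female controls had 366, 530.0 and 68.6 and female cKO libraries 741, 147 and 1091. Male cKO replicate 1 stood above all other libraries for Serping1, the genotypes overlapped in both sexes, and the averaged log2 fold change was 0.84 (SE 0.72). Ptx3, a soluble pattern recognition protein, had 0 to 7.46 normalized counts and was not tested.

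Among the enzymes and the receptor of lipid signalling, Ptgs2 had the smallest p of all members with the sexes averaged. Ptgs2 (chr1:150100031-150108227, plus strand) encodes cyclooxygenase 2, the inducible enzyme of prostaglandin synthesis, and had 65.3, 20.4 and 101 normalized counts in the male controls and 261 and 59.9 in the male cKO libraries. Among females, 19.1, 98.5 and 86.3 were counted in controls and 111, 119.7 and 218 in cKO libraries. All 3 female cKO libraries were above the female controls (111 against 98.5 for the closest pair), and 1 of the 2 male cKO libraries lay within the male controls. Its log2 fold change was 1.31 (SE 0.53, adjusted p = 0.506) with the sexes averaged, with an unadjusted p of 0.0219, 1.27 (SE 0.79, adjusted p = 0.654) in males and 1.36 (SE 0.70, adjusted p = 0.999) in females. The male value of Ptgs2 was 0.21 without male cKO replicate 1, 2.32 without male cKO replicate 3 and 0.62 without male control replicate 2, and the female value was 0.62 without female control replicate 1. Ptgs2 is also an immediate early gene, and its level had Pearson's r = 0.822 and Spearman's rho = 0.745 with the mean of 10 dissociation and immediate early markers over 11 libraries (adjusted permutation p = 0.122 and 0.282). Without the 2 libraries farthest from the median of those markers r was 0.565, and in females 10 of the 10 immediate early markers had positive fitted differences with a median log2 fold change of 0.37; their part in the Ptgs2 values was not tested.

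S1pr3 (chr13:51408639-51422797, plus strand), a receptor of sphingosine 1-phosphate, had 59.3, 49.2 and 79.3 normalized counts in the male controls and 55.5 and 61.3 in the male cKO libraries. In females the values were 75.0, 31.2 and 52.1 in controls and 51.5, 0 and 29.8 in cKO libraries. Female cKO replicate 2 held 0 reads, which allows up to 5.79 normalized counts (3 reads), and the library labelled male cKO replicate 2, which matches it, held 1 read. The log2 fold change of S1pr3 was -2.11 (SE 1.05, adjusted p = 0.999) in females and -0.07 (SE 1.17) in males, and the difference of -2.04 (SE 1.57) was 1.17 when the matching library was kept under its male label instead. Without female cKO replicate 2 the female value of S1pr3 was -0.33 and the difference -0.26. The female value was -3.19 without female cKO replicate 1 and -2.81 without replicate 3. The exons of S1pr3 overlap those of Gm32834 on the other strand. Of the other 2 female cKO values, 51.5 lay within the female controls and 29.8 just below the lowest of them, 31.2.

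**Figure D4:**
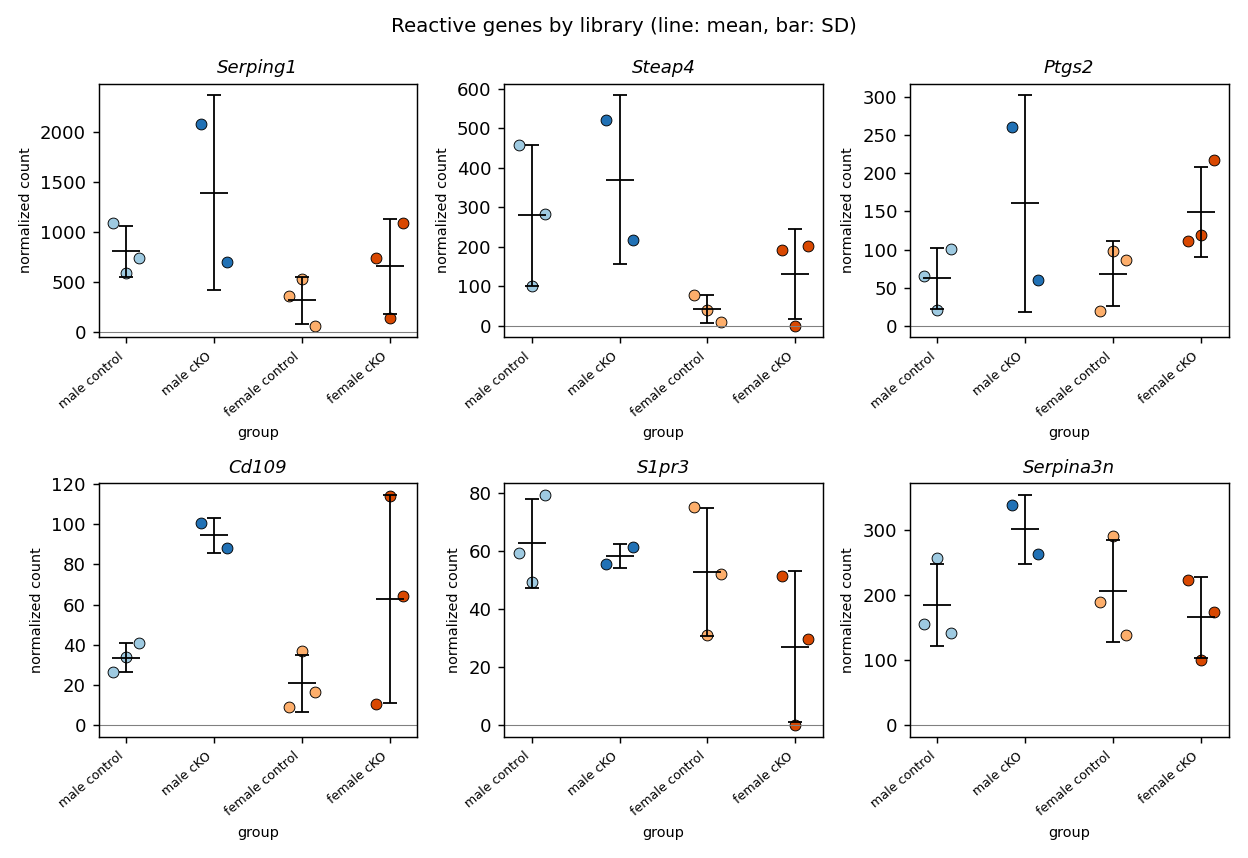
Normalized counts of Serping1, Steap4, Ptgs2, Cd109, S1pr3 and Serpina3n in each of 11 libraries by group (points), with the group mean (line) and SD (bar). Ptgs2 is above the female controls in all 3 female cKO libraries, and the points at 0 for Steap4 and S1pr3 are both female cKO replicate 2.

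The matrix, adhesion and lectin genes divided evenly, 3 positive and 3 negative in each of the averaged, male and female comparisons. Cd44 (chr2:102811141-102901665, minus strand), a hyaluronan receptor, had 70.3, 87.2 and 137 normalized counts in the male controls and 119.5 and 169.6 in the male cKO libraries. The female control libraries held 69.5, 154 and 87.6 and the female cKO libraries 75.2, 65.6 and 73.1. Its highest value was in male cKO replicate 3, and the female cKO libraries lay in a narrow band from 65.6 to 75.2 normalized counts that overlapped the lowest female control. The difference of its effects was -1.04 (SE 0.72, adjusted p = 0.911). Fbln5 (chr12:101746565-101819055, minus strand), an elastic fibre protein, had 46.7, 8.76 and 34.3 normalized counts in the male controls and 59.7 and 35.6 in the male cKO libraries. Values in females were 37.5, 46.8 and 109 in controls and 13.2, 36.7 and 59.6 in cKO libraries. Fbln5 overlapped between genotypes in both sexes. Its log2 fold changes were 0.89 (SE 0.86) in males and -0.88 (SE 0.77) in females, with a difference of -1.77 (SE 1.16, adjusted p = 0.908).
Amigo2 (chr15:97244125-97247287, minus strand), an adhesion protein of the A1 set, had 34.7, 7.51 and 8.57 normalized counts in the male controls and 5.12 and 2.85 in the male cKO libraries. Female controls had 18.4, 52.3 and 6.35 and female cKO libraries 6.26, 9.65 and 7.46. All 5 cKO values were at or below 9.65 and 3 of the 6 controls, male replicates 2 and 3 and female replicate 3, were as low. The averaged log2 fold change of Amigo2 of -1.37 (SE 0.80, adjusted p = 0.649) rests on few reads, and its exons overlap Pced1b on the other strand. Srgn (chr10:62493833-62527451, minus strand), the proteoglycan core protein serglycin, had 108, 46.3 and 161 normalized counts in the male controls and 183.5 and 159.6 in the male cKO libraries. Among females, 135, 101 and 87.6 were counted in controls and 50.1, 187 and 264 in cKO libraries. The female groups overlapped, the male cKO values lay above or just under the highest male control, and the averaged log2 fold change of Srgn was 0.61 (SE 0.42, adjusted p = 0.724). Tnc, the matrix glycoprotein tenascin C, had 6.35 to 179 normalized counts with a median of 35.7 and Lgals3, the lectin galectin 3, 0 to 38.6 normalized counts with a median of 6.03, with averaged log2 fold changes of -0.09 (SE 0.68) and -0.24 (SE 1.2); exons of Tnc overlap 8030451A03Rik on the other strand.

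The remaining members are membrane proteins, transporters and enzymes, of which 5 of 8 tested were positive with the sexes averaged. S100a10 (chr3:93555080-93564643, plus strand), the partner of annexin A2 at the plasma membrane, had 14.6, 30.9 and 57.9 normalized counts in the male controls and 51.2 and 54.1 in the male cKO libraries. In females the values were 6.15, 20.04 and 5.08 in controls and 73.8, 17.4 and 22.4 in cKO libraries. Its female groups overlapped through female control replicate 2, and the log2 fold change was 1.71 (SE 0.85, adjusted p = 0.999) in females, 0.80 (SE 0.95) in males and 1.26 (SE 0.64, adjusted p = 0.591) averaged. Anxa2, which encodes annexin A2 itself, had 59.0 to 234 normalized counts with a median of 119 and an averaged log2 fold change of 0.49 (SE 0.34); its exons overlap Gm16144 on the other strand. Tm4sf1 (chr3:57285611-57301988, minus strand), a tetraspanin-like protein also made by endothelial cells, had 116, 65.9 and 131 normalized counts in the male controls and 31.6 and 78.4 in the male cKO libraries. The female control libraries held 101, 154 and 79.99 and the female cKO libraries 80.05, 83.0 and 76.0. Male cKO replicate 1 was the lowest of all libraries, replicate 3 lay within the male controls, and the log2 fold change of Tm4sf1 was -0.99 (SE 0.57, adjusted p = 0.619) in males and -0.71 (SE 0.38, adjusted p = 0.616) averaged.

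B3gnt5 (chr16:19760208-19772753, plus strand), a glycosyltransferase that starts lacto-series glycolipids, had 54.8, 50.5 and 23.6 normalized counts in the male controls and 15.4 and 9.97 in the male cKO libraries. Values in females were 28.9, 40.6 and 8.89 in controls and 71.7, 9.65 and 38.8 in cKO libraries. The male groups did not overlap and the female groups did. Its log2 fold change was -1.62 (SE 0.96, adjusted p = 0.627) in males and 0.44 (SE 0.86) in females, the difference was 2.06 (SE 1.29, adjusted p = 0.902), and the male value was 0.0031 (SE 1.28) with the astrocyte marker mean as a covariate. Ggta1 (chr2:35400179-35463231, minus strand), a galactosyltransferase of the A1 set, had 83.9, 50.5 and 40.7 normalized counts in the male controls and 87.1 and 29.9 in the male cKO libraries. Female controls had 51.6, 42.9 and 40.6 and female cKO libraries 78.7, 54.0 and 110.3. The 3 female cKO values were above the female controls (54.0 against 51.6 for the closest pair), and the log2 fold change was 0.78 (SE 0.59, adjusted p = 0.999) in females and -0.12 (SE 0.66) in males.

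Steap4 (chr5:7960457-7982213, plus strand), a metalloreductase of iron and copper, had 457, 99.3 and 283 normalized counts in the male controls and 521.5 and 218 in the male cKO libraries. Among females, 78.7, 40.6 and 8.89 were counted in controls and 193, 0 and 201 in cKO libraries. Female cKO replicate 2 had 0 reads, as had the matching library labelled male cKO replicate 2, while the next lowest library held 8.89 normalized counts. The averaged log2 fold change was 0.30 (SE 1.52), an error that spans both directions. Slc10a6 (chr5:103605711-103629403, minus strand), a transporter of steroid sulphates, had 21.1, 0.417 and 12.9 normalized counts in the male controls and 0 and 0 in the male cKO libraries. In females the values were 16.6, 0 and 0 in controls and 0, 0 and 0 in cKO libraries. Its reads came from 4 of the 6 control libraries, with 1 to 42 reads each, and all 5 cKO libraries held 0. Slc10a6 passed the filter only through 3 control libraries (21.1, 12.9 and 16.6 normalized counts). That it was tested, and its negative direction, therefore depend on its high control values. Against the floor of 3 reads per cKO library, the control mean was at least 2.21-fold higher over both sexes and at least 3.35-fold higher in males. These bounds cover the counting error of the cKO libraries only, not the spread of the controls. Without male control replicate 1, which held 42 reads, these bounds for Slc10a6 were 1.56-fold and 1.94-fold; with any other single library left out they were 1.79-fold to 2.66-fold and 2.68-fold to 4.97-fold. The fitted log2 fold change of -2.15 (SE 1.25, adjusted p = 0.647) is no bound, and the median over the members, 0.14, is the same with Slc10a6 at its bound. Emp1, an epithelial membrane protein of the A2 set, had 61.8 to 485 normalized counts with a median of 148.5 and a log2 fold change of 0.10 (SE 0.41). Aspg, an asparaginase, had 0 to 33.01 normalized counts, and all but 1 library held at most 7.13; it was not tested.

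Members whose libraries did not overlap between groups were about as frequent as such genes were among all genes tested. With both sexes together, 0 of the 29 members had all cKO libraries above or below all control libraries, against 0.206% of all genes higher and 0.389% lower. In males 3 were higher (Nes, Serpina3n and Cd109) and 4 lower (Synm, Amigo2, Slc10a6 and B3gnt5), against 12.7% and 14.1% of all genes, a share that is large for all genes because only 2 cKO libraries were left. For Slc10a6 this rests on 1 read (0.417 normalized counts) in male control replicate 2. The floors of 3 reads in the male cKO libraries, 2.56 and 4.27 normalized counts, lie above that value. Amigo2 had 69, 18 and 4 reads in the male controls and 6 and 2 in the male cKO libraries. In females 2 were higher (Ptgs2 and Ggta1) and 0 lower, against 4.39% and 4.75%.

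The published classes were counted over the listed members only, so no class is complete. Of the tested pan-reactive members 7 of 8 were positive in males and 4 of 8 in females, against 48.1% and 49.5% of all genes. Of the 6 A1 members 3 were positive in each sex, and of the 8 tested A2 members 4 were positive in each sex. None was called in any class. A further 12 genes of the published panel that are not on the list included 10 tested, 7 positive and 3 negative with the sexes averaged, and 0 passed. Cxcl10, an interferon-induced chemokine, had 4.02, 0.834 and 6.43 normalized counts in the male controls and 5.97 and 14.2 in the male cKO libraries. The female control libraries held 1.84, 1.67 and 10.2 and the female cKO libraries 24.4, 27.0 and 13.4. Its averaged log2 fold change was 1.82 (SE 0.86, adjusted p = 0.572), with 4 of the 5 cKO libraries above all controls. Cp, the copper oxidase ceruloplasmin, was far more abundant, with 2322, 800.3 and 1740 normalized counts in the male controls and 4521 and 1599 in the male cKO libraries. Values in females were 1069, 736.5 and 639 in controls and 1624, 444 and 2573 in cKO libraries. Its groups overlapped in both sexes, and its log2 fold change was 0.74 (SE 0.50). Gbp2, a guanylate-binding protein induced by interferon, had a log2 fold change of 0.67 (SE 0.63).

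The design, with both genotypes in both sexes, also allows the cKO effect to be compared between the sexes. For the difference of the effects, female minus male, 14 members were positive and 15 negative with a median of -0.18, against 51.8% positive, 48.2% negative and a median of 0.04 over all genes. Of the members 0 were called, as were 0% of all genes, and 0 had an unadjusted p under 0.05 against 5.58% of all genes (731 genes) by limma; edgeR called 0 genes and DESeq2 called 11. Pan-reactive genes on the list had a negative difference in 7 of 8 cases, with a median of -1.05. All 16 astrocyte markers were negative as well, with a median of -1.65 and 7 of 16 at an unadjusted p under 0.05. With the astrocyte marker mean as a covariate the difference of Gfap went from -1.34 (SE 1.17) to 0.46 (SE 0.81) and that of Serpina3n from -1.06 (SE 0.62) to -1.995 (SE 0.66).

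Female and male controls were compared in the same way, as a baseline, with the limit that sex goes with the order of library numbers. Here 13 members were positive and 16 negative with a median of -0.26, against 44.4% positive, 55.6% negative and a median of -0.06 over all genes. Of all genes 5 (0.0381%) were called, namely Xist and the Y-linked Ddx3y, Eif2s3y, Kdm5d and Uty, and 0 members. At an unadjusted p under 0.05, 0 members were counted against 1.83% of all genes. No member was higher in all female controls than in all male controls (3.05% of all genes), and Fkbp5, Serping1 and Steap4 were lower in all 3 (4.94% of all genes). The log2 difference, female minus male, was 1.67 (SE 0.78, adjusted p = 0.9999) for Gfap, -1.67 (SE 0.85, adjusted p = 0.9999) for S100a10, -1.72 (SE 0.97) for Serping1 and -2.88 (SE 2.02) for Steap4. The astrocyte markers were higher in female controls for 16 of 16 genes, with a median of 0.83, and fibroblast markers lower for 7 of 9 with a median of -0.65; their part in these values was not tested.

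The levels of the members were set against those of marker genes of cell types and of dissociation from library to library. In all, 290 correlations were computed between 29 members and 10 marker lists over the 11 libraries. A single one passed adjustment by both measures, that of Nes with endothelial and mural markers. Its Pearson's r was 0.95 (permutation p = 1e-05, the smallest that the permutations can give, adjusted p = 0.0029) and its Spearman's rho 0.955 (permutation p = 3e-05, adjusted p = 0.0087). Without the 2 libraries farthest from the median of the markers r was 0.91, and over deviations from the group means it was 0.981. Nestin is known in vascular cells too, and the 12 vessel markers, of which Slco1a4, Flt1 and Rgs5 were the most abundant, summed to 2737 to 7298 normalized counts, with none at 0 in all libraries.
Pearson's r was over 0.7 in either direction for 15 pairs, 9 positive and 6 negative, and the other 14 of these did not pass. For Emp1 and fibroblast and meningeal markers r was 0.866 and rho 0.891 (adjusted permutation p = 0.0609 and 0.0725; r = 0.75 without the 2 farthest libraries). Serping1 and these markers had r = 0.812 and rho = 0.736 (adjusted permutation p = 0.117 and 0.282; r = 0.62 without the 2 farthest libraries). These markers, 9 genes led by Dcn, Col1a2 and Lum, summed to 8132 to 22390 normalized counts in male controls, 22780 to 38470 in male cKO, 3371 to 14080 in female controls and 2661 to 21020 in female cKO libraries. For Steap4 and the same markers r was 0.714 and rho 0.664 (adjusted permutation p = 0.183 and 0.362), and r was 0.356 without the 2 farthest libraries, so that relation rests on those libraries. With dissociation and immediate early markers r was 0.822 for Ptgs2, 0.813 for Vim and 0.735 for Osmr. With astrocyte markers it was 0.773 for Gfap (rho = 0.691, adjusted permutation p = 0.175 and 0.359; r = 0.711 without the 2 farthest libraries), 0.792 for Nes and -0.772 for B3gnt5. The remaining negative pairs were Srgn and Nes with oligodendrocyte markers (r = -0.792 and -0.784), Serpina3n and Timp1 with neuron markers (-0.783 and -0.76) and Synm with fibroblast and meningeal markers (-0.735). Over these 14 pairs the adjusted permutation p was 0.0609 to 0.183 for r and 0.0725 to 0.425 for rho. The marker lists are not independent of each other: over the same libraries astrocyte and vessel markers had r = 0.705, and astrocyte and oligodendrocyte markers r = -0.788.

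**Figure D5:**
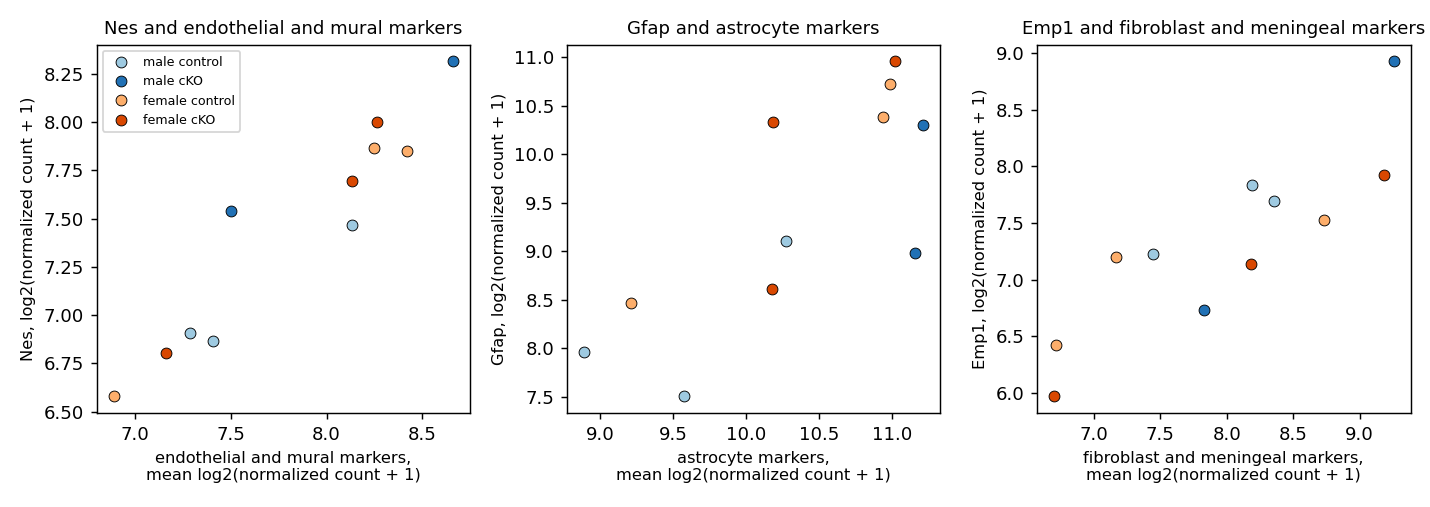
Level of Nes, Gfap and Emp1 (vertical axes, log2(normalized count + 1)) against the mean level of endothelial and mural, astrocyte, and fibroblast and meningeal markers (horizontal axes, mean log2(normalized count + 1)) in 11 libraries coloured by group. Nes lies close to a line with the vessel markers (r = 0.95), and Gfap and Emp1 scatter more widely around theirs.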

How the data were processed

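Gene expression was measured in sorted GFP-positive spinal cord cells of mice in 12 labelled libraries. Per the labels' protocols, 10 ng of column-purified RNA went into each Trio RNA-seq V2 library, sequenced paired-end. The submitters' processing notes name STAR 2.5.0a, the DESeq2 release 1.20.0, MultiQC 0.9, FastQC 0.10.1 and the mm10 genome, without saying which did what. For the counting tool, its annotation and its use of strand, the answer is not given in the sources used here. The deposited signal is a normalized count per gene: all values above 0 (100% in each library) came out as whole multiples of 1 step, within 0.01 reads, so whole reads and depth were recovered. Counting error limits the precision of members with few reads; floors are 3 reads per library.

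The members and all gene lists were chosen with earlier results of these data known. limma 3.58.1 in R 4.3.3, with intensity trend and robust variance, was fitted to log2(value + 1) with 1 mean per group in 11 libraries; fold changes on this scale understate those of low genes. Tested were the genes reaching 10 normalized counts in 3 or more libraries, and p-values were adjusted over all of them (threshold 0.05). The library labelled male cKO replicate 2 was left out as the duplicate of female cKO replicate 2. edgeR 4.0.16 and DESeq2 1.42.0 on the recovered reads, another scaling, pseudocount and filter, other sets of libraries, a replicate block and an astrocyte covariate were alternatives. The code was tested on simulated data. All members are named; values in every library were to be given for the filament genes and for members with the 8 smallest p in the cKO contrasts, and of each pathway list the 3 genes with the smallest p with the sexes averaged were named. Steap4 and Serping1 were added after their values were seen. Correlations used 100000 permutations, two-sided. Exons, coordinates and overlaps are from GENCODE (GRCm38). In 27 entries of the table the gene name had become a date; they were tested and not named.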

Additional observations from a re-analysis of the deposited data

Results flagged for a closer look

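For each tested member, the highest and the lowest library of the 6 controls and of the 5 cKO libraries, on the log2 scale and with the sexes together, were compared with the nearest of the others. Of 58 such sets, 5 held a library that stood apart; chance gives about 1 in 20.

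Cd109 stood apart in female cKO replicate 1, at 10.4 normalized counts, below the other cKO libraries. S1pr3 was at 0 normalized counts in female cKO replicate 2, where the other cKO libraries held 29.8 to 61.3. Steap4 was at 0 in the same library, where the other cKO libraries held 193 to 522. Tm4sf1 was at 31.6 normalized counts in male cKO replicate 1, below the other cKO libraries, and Ggta1 at 83.9 in male control replicate 1, above the other controls.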

How the results depend on the processing

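No member passed under any of the 21 alternatives, with a lowest adjusted p of 0.252 in limma or edgeR and 0.249 in DESeq2. The direction held in 939 of 952 refits of the 46 fold changes that the naming rule takes. Of all member fold changes, 116 of 1445 refits with another setting and 115 of 1550 with a library left out changed direction. These counts include refits that could not change a value, since leaving out a library of 1 sex leaves the fold change in the other sex as it was. Most of the 46 fold changes were also taken for their small p in these same data. The shares that held are therefore no measure of how firm the directions are. Genes called by DESeq2 numbered 29, 84, 2, 11 and 6 in the averaged, male, female, difference and control comparisons, where limma called 0, 0, 0, 0 and 5 (1123, 1271, 511, 731 and 240 at an unadjusted p under 0.05). Leaving out 1 library gave 0 to 2 genes in the averaged, 0 to 22 in the male, 0 to 1 in the female and difference comparisons, and 2 to 6 among controls. The averaged and male maxima came without male cKO replicate 3; without female control replicate 2 there were 11 in males. With both cKO replicate 3 libraries left out 14 genes were called in males. Among controls 0 were called with all 12 libraries and 0 with female cKO replicate 2 left out in place of its match; in both cases the male median of the members was -0.080, and in the second the median difference was 0.30. It was -0.72 without both cKO replicate 3 libraries. In that fit 19 member fold changes over all comparisons changed direction and 121 did not. With the astrocyte marker mean as a covariate the direction turned for Gfap (-0.22 averaged, -0.45 in males, 0.46 for the difference), Nes (-0.036 averaged, -0.090 in males), B3gnt5 (0.0031 in males) and C3 (0.012 for the difference). The male control and male cKO libraries did not overlap in that marker mean, which limits these adjusted values. In females Gfap was -0.39 with female cKO replicate 2 left out in place of its match, -0.0752 without both cKO replicate 3 libraries, and -0.59 to 0.79 when 1 library was left out (-0.59 without female control replicate 2). The difference of S1pr3 was 1.17 with female cKO replicate 2 left out in place of its match. The causes were not tested.

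The replicate numbers did not pair the libraries: over 15 same-numbered pairs the correlation of deviations was -0.11 to 0.06, with 0 over 0.1. With the replicate block limma called 0 genes in the averaged, male, female and difference comparisons and 5 among controls (946, 1035, 483, 602 and 238 at an unadjusted p under 0.05). Depth limits Sphk1, Clcf1, Ptx3, Aspg, Timp1, Lgals3, Slc10a6 and Amigo2, which had few reads.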

Other observations

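Lcn2, a secreted iron-carrier-binding protein used as a reactive astrocyte gene and also stored in neutrophil granules, was chosen here after its values were seen. It had 83.9, 1.25 and 281 normalized counts in the male controls, 171 and 0 in the male cKO, 0, 101 and 0 in the female control and 0, 0 and 26.8 in the female cKO libraries. The 9 neutrophil markers, led by Mpo, S100a9 and Ngp, summed to 1258, 169.7 and 5958, to 1708 and 0, to 0, 1516 and 53.3, and to 21.6, 48.3 and 0 in the same libraries. Lcn2 had its 4 highest values in the 4 libraries with the highest neutrophil sums. Its averaged log2 fold change was -1.08 (SE 1.93, adjusted p = 0.910).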
